A study of Mus musculus with 4 samples.

Results

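Alcohol dehydrogenases, retinaldehyde dehydrogenases and proteins of retinoid handling were described in the interscapular brown (iBAT) and epididymal white (eWAT) adipose tissue of mice with and without the stress-activated kinase ASK1. The 9 genes were Adh1, Adh4, Adh5, Adh7, Aldh1a1, Aldh1a2, Aldh1a3, Retsat and Stra6, of 22065 genes named on the arrays, and each had 1 probe that carried its name. They were selected on the measured signal of Adh4, which was lower without ASK1 in both fats, so the difference between genotypes in Adh4 is given as a description and was not tested. All animals were male C57BL/6J mice aged 10 weeks under normal conditions. WT iBAT, ASK1-deficient (ASK1KO) iBAT, WT eWAT and ASK1-deficient eWAT each had 1 one-colour array, hybridised with RNA pooled from 3 mice. ASK1-deficient mice lack the kinase in the whole body and were bred separately from WT, so breeding history and genotype cannot be told apart. With 1 pool per condition there was no replicate, and the spread between mice is unknown. In whole tissue, fewer cells of a type and less RNA per cell cannot be told apart.

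Alcohol dehydrogenases oxidise alcohols, retinol among them, to aldehydes, and retinaldehyde dehydrogenases turn retinal into retinoic acid, the ligand of the nuclear receptors RAR. Adh1 (class I) is abundant in liver and fat, Adh4 (class II) is best known from liver, Adh5 (class III) also breaks down S-hydroxymethylglutathione, and Adh7 (class IV) acts in the epithelium of the upper gut. In the mouse these genes lie side by side on chromosome 3. Aldh1a1, Aldh1a2 and Aldh1a3 are the 3 retinaldehyde dehydrogenases, Retsat saturates all-trans-retinol, and Stra6 is the receptor for retinol bound to its plasma carrier Rbp4. In fat, Aldh1a1 limits the retinal that restrains adipogenesis, and retinoic acid can raise transcription of Ucp1, the uncoupling protein of brown fat.

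Members of both enzyme families resemble each other, so parts of their 60-base probes are shown, with the longest run of bases shared with another probe of the family in capitals. The 4 alcohol dehydrogenase probes all lie on chromosome 3 of the mouse assembly mm9, Adh7 at chr3:137894495-137894554, Adh1 at chr3:137952821-137952880, Adh4 at chr3:138093716-138093775 and Adh5 at chr3:138118383-138118442.
Adh1: ttttacctttcgAGAAAATaaatgaagcat
Adh4: tgccaggagcaacTTGGAatgttatctgat
Adh5: aaatcagaatattCTTTCtttctcagcaaa
Adh7: atgtagagatgtAGAAAATgaatttttcaa
The Adh4 probe shared no run longer than 5 bases with the probe of Adh1, Adh5, Adh7 or Adh6a. Among all pairs of these 5 probes the longest shared run had 7 bases.

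The retinaldehyde dehydrogenase probes are shown beside that of Aldh1a7, a close relative of Aldh1a1 in rodents. Those of the members lie at chr19:20717764-20717823 for Aldh1a1, chr9:71143931-71143990 for Aldh1a2 and chr7:73535785-73535844 for Aldh1a3, on the minus strand. The Retsat probe is at chr6:72556656-72556715 and the Stra6 probe at chr9:58001701-58001760.
Aldh1a1: ccctcagtgacTCCTTGAAgtactcaccac
Aldh1a2: agaatgtgaaaatgaagatttaTGACTTtt
Aldh1a3: ggggattttgatCTTAAGttcagattgtgt
Aldh1a7: tTCCTTGAActatgtaccatgcatgataac
The longest shared run, 8 bases, was between Aldh1a1 and Aldh1a7, whose probes matched at no more than 21 of 60 bases without gaps.

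The promoter of Adh4 is shown because it was the only one found among the members to hold the letters AGGTCA, the half-site that RAR and other nuclear receptors bind. The 250 bases before its RefSeq start, chr3:138415247-138415496 on the plus strand of GRCm38.p6, are given with the half-sites in capitals.
Adh4 promoter: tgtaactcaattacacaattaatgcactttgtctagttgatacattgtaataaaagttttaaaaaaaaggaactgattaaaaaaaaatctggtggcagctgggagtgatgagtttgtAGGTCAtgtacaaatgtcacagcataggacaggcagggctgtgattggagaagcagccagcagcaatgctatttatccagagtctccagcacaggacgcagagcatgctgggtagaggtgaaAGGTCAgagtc
Both strands were searched, and the matches of Adh4 began 133 and 11 bases before the start. At least 1 such half-site occurred in 14.0% of the 32851 windows of this length, and at least 2 in 1.36%. The Adh4 window held neither a direct repeat of AGGTCA with 1 base between the copies (0.0335% of windows) nor one with 5 bases between (0.00913%). It did not hold the cAMP response element TGACGTCA either, which was in 1.55% of windows. Windows were at hand for 8 of the members, all but Aldh1a3. These matches are letters in a sequence and were not tested as sites.

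On each array 52.1% to 60.0% of 55672 probes were well above background. The 75th percentile of the signal was 356 to 371 in iBAT and 634 to 673 in eWAT, and levels below are log2 of the scanner software's background-corrected signal minus log2 of that percentile. One Map3k5 probe, in the gene for ASK1, read -2.00 in iBAT and -1.76 in eWAT as a log2 ratio, ASK1-deficient minus WT. The other read -0.06 and -0.51. The brown fat gene Ucp1 was higher in iBAT and the hormone gene Lep in eWAT, with log2 differences (iBAT minus eWAT) of 6.62 and -4.56 in WT.

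**Figure D1:**
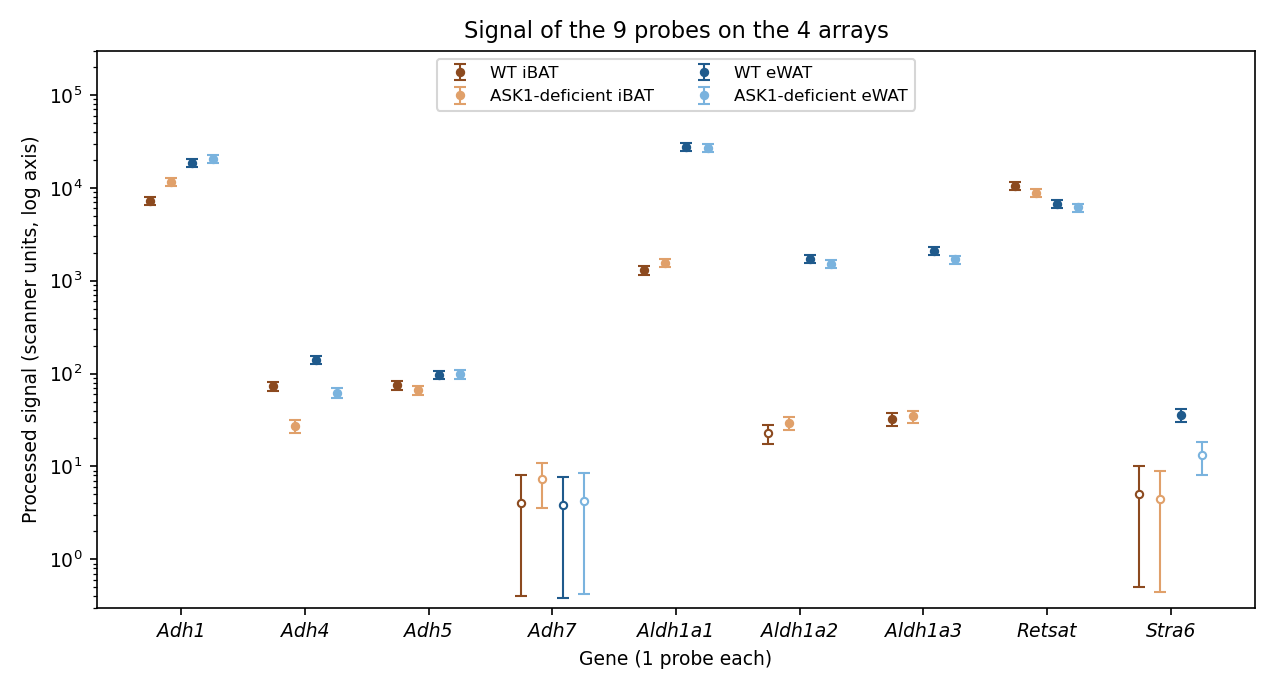
Signal of each member's probe (scanner units, log axis) on the 4 arrays. Bars are the scanner software's error of 1 spot, shortened at the lower end where they would reach 0, and open points are spots not well above background. Adh4 was lower on the ASK1-deficient array of each tissue, and the 3 retinaldehyde dehydrogenases were brighter on both eWAT arrays.

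Adh4 gave a signal of 72.8 ± 8.4 (error of the scanner software for the single spot) in iBAT of WT and 27.3 ± 4.5 in iBAT of ASK1-deficient mice. The eWAT pools gave 141.5 ± 14.7 without and 62.2 ± 7.6 with ASK1 deficiency. All 4 spots were well above background but dim, the lowest such signal on the arrays being 17.3 to 20.7. The scaled level was therefore 2.78-fold lower without ASK1 in iBAT, a log2 ratio of -1.48 with a scanner error of 0.29, and 2.14-fold lower in eWAT, a log2 ratio of -1.10 with an error of 0.23. For comparison, probes with signals of 20 to 200 that were spotted at least 5 times had a median SD of the log2 ratio between spots of 0.19 in iBAT (88 probes) and 0.18 in eWAT (61 probes). Of all genes measured, 0.299% were lower than Adh4 in iBAT and 0.683% in eWAT. Adh4 was selected on these same values, so its rank is a description and not a test. With normexp background correction, which adds 50 to every signal, the log2 ratio of Adh4 was -0.55 in iBAT and -0.70 in eWAT, short of 2-fold in both.

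Adh4 was the 1 member at least 2-fold lower in iBAT, of 6 measured on both arrays of that tissue, and the 1 of 7 measured in eWAT. Since the members were chosen through it, nothing is read from these counts. Among all genes measured, 1.02% were at least 2-fold lower and 0.835% at least 2-fold higher in ASK1-deficient iBAT, and in eWAT 0.865% were lower and 0.286% higher. The split in iBAT, 146 lower and 120 higher, was 105 and 170 with the percentile taken over probes detected on every array, 186 and 90 with median centring and 190 and 88 in the series table. At least 2-fold lower in both tissues were 10 of 14059 genes (0.0711%), and Adh4 was among them. The others were Map3k5 itself, Dio2, which encodes the deiodinase that activates thyroid hormone, the acyl-CoA thioesterase Acot11, the cytokine signalling inhibitor Cish, Hebp2, Niban3, Tatdn2, Zfp963 and Gm6524.

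**Figure D2:**
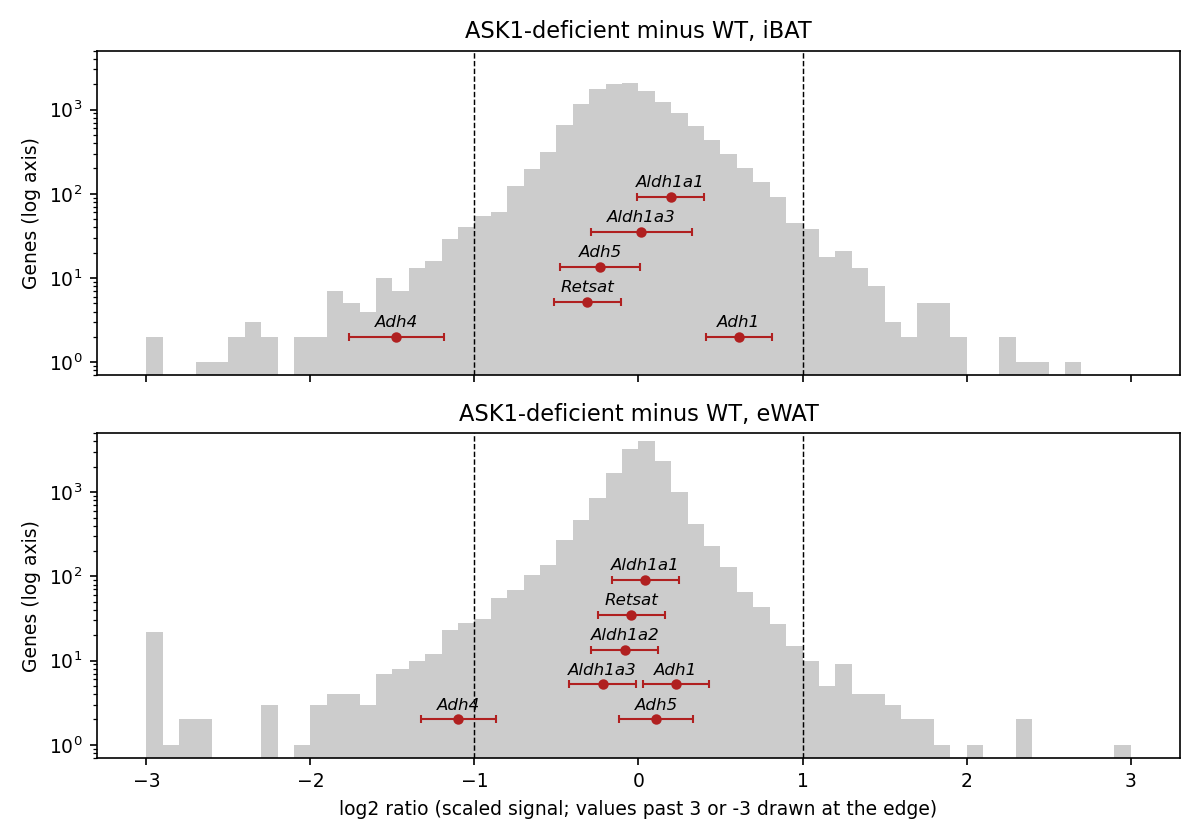
log2 ratios, ASK1-deficient minus WT, of the members (points, with bars for the scanner error and heights only to separate them) on the distribution of all genes measured (grey, number of genes on a log axis). Adh4 lay beyond the 2-fold line at -1 in both tissues, at -1.48 and -1.10, and no other measured member lay beyond either line.

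Adh1 went the other way. Its iBAT signal was 7244 ± 724 for WT and 11558 ± 1156 for ASK1-deficient mice, and its eWAT signal was 18762 ± 1876 for WT and 20688 ± 2069 for ASK1-deficient mice, so that both eWAT arrays were brighter than both iBAT arrays before scaling. In iBAT this was a log2 ratio of 0.61, with an error of 0.20, and in eWAT of 0.23, also with an error of 0.20. The eWAT ratio was within that error without scaling (0.14) and with quantile normalization (0.18). Thus the signs of Adh1 and Adh4 were opposite in both fats under each of the scalings tried. In eWAT, however, the difference of Adh1 was near its error. Adh5 differed by about its error or less, with log2 ratios of -0.23 for iBAT (error 0.24) and 0.11 for eWAT (error 0.23). Adh7 was not well above background on any array, its signals being 3.83 to 7.28.

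The retinaldehyde dehydrogenases differed little between genotypes. Aldh1a1 gave 1296 and 1549 in WT and ASK1-deficient iBAT, and 27589 and 26731 in the eWAT arrays. Neither log2 ratio, 0.20 in iBAT and 0.04 in eWAT, was larger than the error of 0.20, and the sign in eWAT turned without scaling (-0.05) and with quantile normalization (-0.03). Aldh1a3 had a log2 ratio of 0.02 in iBAT, where the sign changed with the scaling, and -0.22 in eWAT, with an error of 0.20. Aldh1a2 had -0.08 in eWAT. In iBAT it was well above background only in ASK1-deficient mice, at 29.3 ± 4.8 against 22.7 ± 5.2, which makes it at least 1.24-fold higher there, a bound within the scanner error.

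Retsat in iBAT gave 10424 for WT and 8765 for ASK1-deficient mice, and its log2 ratio of -0.31 had an error of 0.20. In eWAT it gave 6754 and 6166, a log2 ratio of -0.04. Stra6, the retinol receptor, exceeded background clearly on the WT eWAT array alone, at 35.6 ± 5.8. In ASK1-deficient eWAT it reached 13.3 ± 5.2, at least 1.62-fold lower, and in iBAT it was 5.01 in WT and 4.41 in ASK1-deficient mice. Thus Stra6 was dim throughout, and its only measured level was in WT eWAT.

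The difference between the tissues did not choose the members and was tested. A linear model of genotype and tissue over the 4 arrays was fitted with limma for 14057 genes well above background on all of them. Its 1 residual degree of freedom is how far the genotype effect of one tissue departs from that of the other, not the spread between mice. The fit called 55.4% of the genes, 30.8% higher in iBAT and 24.6% higher in eWAT, at an adjusted p under 0.05, so a call alone sets no gene apart. Without scaling the split of 4333 genes higher in iBAT and 3461 in eWAT became 1283 and 9581.

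Aldh1a1 and Aldh1a3 were higher in eWAT, and Retsat was higher in iBAT. Aldh1a1 had a log2 difference of -3.41 (SE 0.15, limma adjusted p = 2.37e-05), and was 11.2-fold higher in eWAT than in iBAT of WT and 10.1-fold higher in ASK1-deficient mice. Without scaling its log2 difference was -4.26. Aldh1a3 gave signals of 32.8 ± 5.2 and 34.6 ± 4.9 in WT and ASK1-deficient iBAT and of 2101 and 1699 in eWAT. It was 31.2-fold higher in eWAT, with a log2 difference of -4.96 (SE 0.15, limma adjusted p = 9.34e-06). That difference was -3.62 with normexp and -5.81 without scaling, which are 12.3-fold and 56.1-fold. Aldh1a2, at 1706 and 1517 in the WT and ASK1-deficient eWAT arrays, was not in the fit. It was 30.3-fold higher in ASK1-deficient eWAT than in ASK1-deficient iBAT and at least 39.8-fold higher in WT eWAT than in WT iBAT, a bound that was 11.3-fold with normexp and 75.3-fold without scaling. For all 3 genes both eWAT arrays were brighter than both iBAT arrays.

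Retsat was 2.66-fold higher in iBAT, with a log2 difference of 1.41 (SE 0.15, limma adjusted p = 0.000559), and without scaling the log2 difference was 0.57 (limma adjusted p = 0.0135), or 1.48-fold. It was the only member called higher in iBAT, and its raw signal was also higher in iBAT on both arrays. The 3 alcohol dehydrogenases in the fit were not called. The log2 difference was -0.26 for Adh1 (SE 0.16, limma adjusted p = 0.221), -0.23 for Adh4 (SE 0.16, adjusted p = 0.276) and 0.37 for Adh5 (SE 0.16, adjusted p = 0.0946). In WT the level of Adh4 was -2.29 in iBAT and -2.25 in eWAT, which differ by less than the scanner error. Without scaling between arrays all 3 were called higher in eWAT, with log2 differences of -1.11 for Adh1, -1.07 for Adh4 and -0.48 for Adh5. That of Adh4 turned to 0.21 with normexp. With tissue alone it was -0.97 without the WT iBAT array and 0.51 without the ASK1-deficient iBAT array. Adh1 and Adh5 were also called, without a change of direction, with normexp and without the ASK1-deficient iBAT array.

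**Figure D3:**
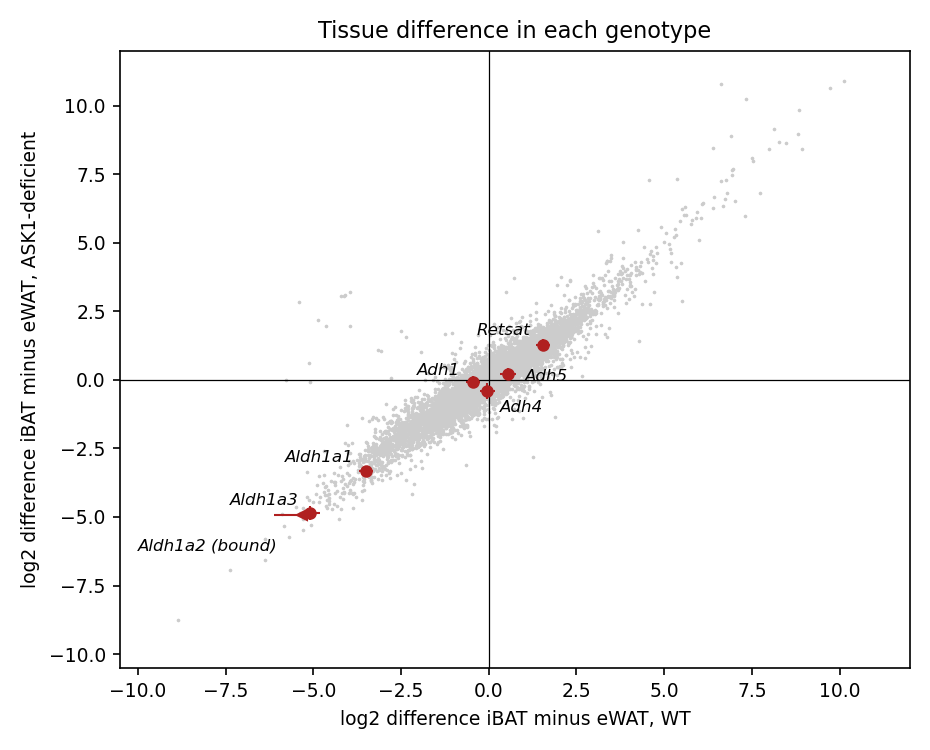
log2 difference, iBAT minus eWAT, in WT (x axis) and ASK1-deficient mice (y axis) for the members (red, bars are the scanner error) and all genes measured in both (grey). The triangle of Aldh1a2 is a bound in WT. Aldh1a1, Aldh1a2 and Aldh1a3 lay below -3 on both axes, Retsat lay above 1, and Adh1, Adh4 and Adh5 lay near 0.

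Tissue markers moved with these differences. Of 8 mesothelial markers, genes of the lining that covers eWAT, 2 and 3 were well above background in WT and ASK1-deficient iBAT and all 8 on both eWAT arrays. Their summed level was 0.414 to 0.524 times the 75th percentile in iBAT and 32.4 to 39.2 in eWAT, and the mesothelial transcription factor Wt1 gave 4.42 and 3.68 in iBAT against 4138 and 3458 in eWAT. All 6 fibroblast and preadipocyte markers were called higher in eWAT by the fit, with summed levels of 127 to 158 in iBAT and 438 to 448 in eWAT, as were 4 of 5 macrophage markers (39.3 to 48.2 against 123 to 131). All 5 brown adipocyte markers tested and all 4 skeletal muscle markers tested were higher in iBAT, with summed levels of 3195 to 3825 against 16.0 to 48.4 for brown adipocytes and 593 to 598 against 4.22 to 8.37 for muscle. The adipocyte markers were measured on every array, at summed levels of 2263 to 2638. Of these 7 the fit called 2 higher in iBAT and 3 higher in eWAT, among the latter Lep (log2 difference -4.49) and Retn (-3.18). Of 8 epididymis markers only Rnase10 was well above background, on every array, at summed levels of 1.06 to 1.32. The part of these cells in the tissue differences of the members was not tested.

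Marker lists also differed between genotypes, beside Adh4. In eWAT hepatocyte markers, transcripts of the liver such as albumin (Alb), were all 10 well above background in WT and 5 of 10 in ASK1-deficient mice, with a median log2 ratio of -4.03 over the 5 measured on both arrays. At least 2-fold lower were 4 of these 5, Ahsg (-5.58), Alb (-4.26), Serpinc1 (-4.03) and Apoa2 (-2.91), genes of plasma proteins made by liver. The 2 probes of Apoa2 disagreed, at -5.08 and, for the brighter, -0.74, which is short of 2-fold. Alb gave 3234 in eWAT of WT and 158 in that of ASK1-deficient mice, while Hp, which fat also expresses, gave 373790 and 332620 and made up most of the summed level of 582 and 532. In iBAT 3 hepatocyte markers were well above background in WT and 9 in ASK1-deficient mice, and the median log2 ratio of the 3 measured on both arrays was 0.01. Alb there was not well above background in WT, at 7.50, and gave 115 in ASK1-deficient mice. The summed level in iBAT, again mostly Hp, was 349 and 294. Brown adipocyte markers were below 0 in both tissues, 6 of 6 in iBAT with a median of -0.37 and 5 of 5 in eWAT with a median of -1.02. Those at least 2-fold lower were Elovl3 (-4.10) and Dio2 (-2.37) in iBAT and Ucp1 (-4.63), Cidea (-2.23) and Dio2 (-1.02) in eWAT. Medians of all genes were -0.07 and 0.02.

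Other lists moved less or in 1 tissue. Macrophage markers were above 0 in iBAT for 5 of 5, with a median of 0.58, and fibroblast markers for 5 of 6, with a median of 0.36. In eWAT their medians were -0.06 and -0.04. Mesothelial markers were below 0 in eWAT for 8 of 8, with a median of -0.26, and skeletal muscle markers had a median of -0.89 in eWAT and -0.09 in iBAT. One gene of each was at least 2-fold apart, the keratin gene Krt18 among the 2 mesothelial markers measured in iBAT (1.39) and the muscle actin gene Acta1 in eWAT (-1.02). The part of these cells in the genotype differences of the members was not tested.

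The genes near Adh4 on the chromosome were also examined. Of 59 genes with a probe within 5 Mb, 38 were measured in iBAT, where Adh4 alone was at least 2-fold lower and 21 were below 0, and 44 in eWAT, where 3 were at least 2-fold lower and 24 below 0. Adh4 set the choice of this region. Without Adh4, 0 of 37 measured genes were at least 2-fold lower in iBAT and 2 of 43 (4.65%) in eWAT, beside 1.02% and 0.865% of all genes. The iBAT counts leave out Gbp2b, which has only a bound there. Shares below 0 without Adh4 were 54.1% and 53.5%, beside 59.5% and 45.8% of all genes. The 3 lower in eWAT were Adh4, Mttp, which loads lipid on apolipoprotein B, and Gbp2b, an interferon-inducible GTPase listed in the files as Gbp1. Mttp lies 0.34 Mb from Adh4 and its log2 ratio was -0.63 in the brown and -1.13 in the white fat. Gbp2b lies 4.19 Mb away and had -5.37 in eWAT. Its 2 probes gave 326 and 309 in iBAT of WT and 4.66 and 3.90 in iBAT of ASK1-deficient mice, where neither was well above background, so that they were at least 19.7-fold and 18.7-fold lower. None of the measured genes was at least 2-fold higher, and the medians were -0.04 in iBAT and -0.02 in eWAT. The nearest gene to Adh4, Adh5, had -0.23 and 0.11, and Adh1, 0.14 Mb away, had 0.61 and 0.23.

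**Figure D4:**
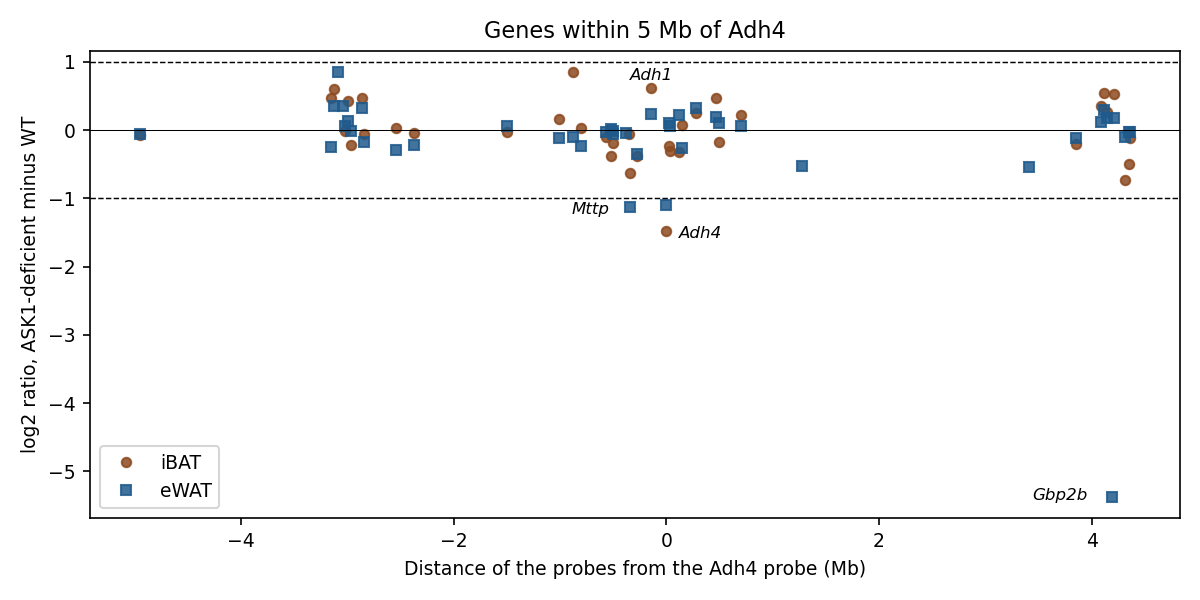
log2 ratio, ASK1-deficient minus WT, of genes within 5 Mb of the Adh4 probe, by distance (Mb), in iBAT (circles) and eWAT (squares). Dashed lines mark 2-fold. Adh4 was beyond the line in both tissues, and Mttp (-1.13) and Gbp2b (-5.37) in eWAT. Gbp2b in iBAT, which has only a bound, is not drawn.

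The genes with patterns nearest to that of Adh4 were found by Euclidean distance between log2 levels centred over the 4 arrays, among 14056 other genes. They were Phlda1 (distance 0.40), Tmprss6 (0.44), the clock-linked repressor Bhlhe40 (0.47), Tatdn2 (0.48) and Hpd (0.50). Tmprss6, a protease that restrains hepcidin, and Hpd, an enzyme of tyrosine breakdown, are best known from liver. A likeness over 4 arrays is a description of these pools.

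Beyond the members, retinoid uptake and storage was described by 15 genes, of which 10 were measured in iBAT and 11 in eWAT. Rbp7, a retinol-binding protein of fat and its vessels, was the only gene of the list, among those measured on both iBAT arrays, at least 2-fold higher there. In iBAT its signal was 6048 for WT and 13979 for ASK1-deficient mice (log2 ratio 1.15), and in eWAT the signals were 20495 and 34062 (log2 ratio 0.82). It was thus higher without ASK1 in both fats. The median of the list was -0.31 in iBAT, where 7 of 10 were below 0, beside 59.5% of all genes. The lowest there were the triglyceride enzyme Dgat1 (-0.71) and the plasma retinol carrier Rbp4 (-0.70). In eWAT the median was 0.10, Rbp4 had 0.34, and the lowest was the Stra6-like receptor Stra6l (-0.49). The next highest in iBAT was the retinoic acid carrier Crabp2 (0.23). Ttr, the plasma partner of Rbp4 and also a hepatocyte marker, gave 10.1 and 44.8 in WT and ASK1-deficient iBAT and 829 and 4.43 in eWAT. The first and the last of these were not well above background, so Ttr was at least 2.18-fold higher without ASK1 in iBAT and at least 37.7-fold lower in eWAT.

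Of 23 other oxidoreductases of retinol and retinal, 18 were measured in iBAT, 16 below 0 and 2 above, the median being -0.22. None of those measured on both arrays of a tissue was 2-fold apart. Of all genes measured, 59.5% were below 0 in iBAT and 45.8% in eWAT. The lowest in iBAT was Dhrs9, a retinol dehydrogenase, at -0.91, which had -0.56 in eWAT, and Dhrs7 was next at -0.70. Dhrs9 gave 372 and 206 in WT and ASK1-deficient iBAT and 38.7 and 24.7 in eWAT. Cyp26b1, which breaks down retinoic acid, was the highest in both, at 0.27 in iBAT and 0.72 in eWAT. Its signals were 147 and 185 in WT and ASK1-deficient iBAT and 761 and 1181 in eWAT. The next highest were Rdh11 in iBAT (0.14) and Rdh1 in eWAT (0.35), and Rdh10, which makes retinal in the embryo, was the second lowest in eWAT (-0.24). The median of the list in eWAT was -0.01 over 17 genes, and its sign changed with the scaling. Rdh7, too, was detected on the WT eWAT array alone, at 289.5, against 4.65 in ASK1-deficient eWAT, and was at least 13.2-fold lower there.

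The 6 retinoic acid receptors, RAR and RXR, had medians of -0.17 in iBAT and -0.04 in eWAT. Their values ran from -0.32 (Rxrb) and -0.30 (Rarb) to -0.0015 (Rxrg) and 0.12 (Rarg) in iBAT and from -0.29 (Rara) and -0.18 (Rarg) to 0.01 (Rarb) and 0.07 (Rxra) in eWAT. Of 13 genes that retinoic acid is known to induce, 10 were measured. In iBAT 8 of them were above 0, beside 40.5% of all genes, with a median of 0.20. The highest there were the chemerin gene Rarres2 (0.52) and Rarres1 (0.32), and the lowest were Rarb (-0.30) and the retinal reductase Dhrs3 (-0.12). In eWAT 6 of the 10 were above 0 (4 without scaling), beside 54.2% of all genes, and the median was 0.05, below 0 without scaling. Cyp26b1 (0.72) and Rarres1 (0.56) were highest there and Crabp2 (-0.10) was among the lowest. No receptor or target measured on both arrays of a tissue was 2-fold apart. These genes overlap the other lists, in Cyp26b1, Rarb, Dhrs3 and Crabp2 among others.

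Other alcohol and aldehyde dehydrogenases are given beside all genes, of which 59.5% were below 0 in iBAT, with a median of -0.07, and 54.2% above 0 in eWAT. The 6 other alcohol dehydrogenases and aldo-keto reductases measured were all below 0 in iBAT, with a median of -0.20, and all above 0 in eWAT, with a median of 0.12. They ran from -0.42 (Adhfe1) and -0.36 (Akr1b10) to -0.08 (Akr1a1) and -0.06 (Akr1b3) in iBAT, and from 0.08 (Akr1b8) to 0.17 (Sord) in eWAT. With other scalings 0 to 2 of the 6 were above 0 in iBAT and 5 to 6 in eWAT. Of 14 other aldehyde dehydrogenases measured in iBAT 13 were below 0, with a median of -0.23. The lowest were Aldh3b2 (-0.73) and Aldh1a7 (-0.65), and the highest were Aldh3b1 (0.17) and Aldh8a1 (-0.04). In eWAT the median was 0.01 over 16 genes, with Aldh1b1 (-0.57) and Aldh18a1 (-0.16) lowest and Aldh1a7 (0.20) and Aldh5a1 (0.17) highest. Aldh2, the main acetaldehyde dehydrogenase, had -0.26 and -0.03.

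**Figure D5:**
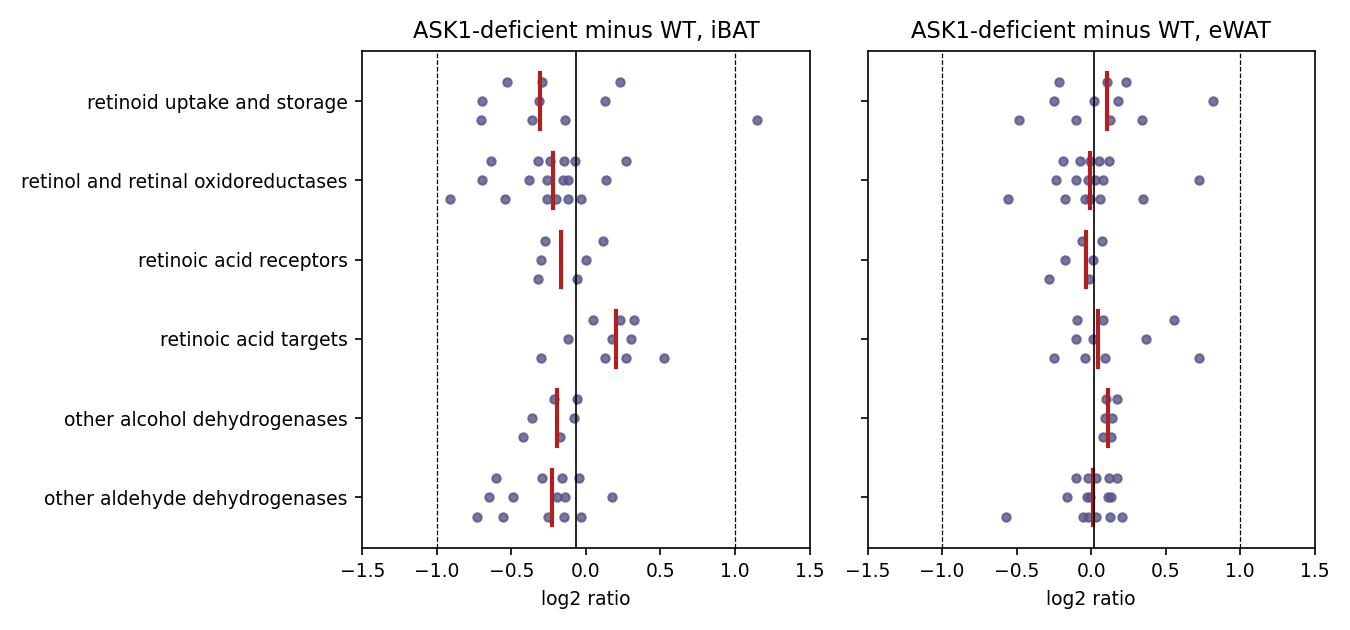
log2 ratio, ASK1-deficient minus WT, of the measured genes (points) of 6 lists in iBAT and eWAT, with the median of each list (red), the median of all genes (solid line) and 2-fold (dashed). Rbp7, at 1.15 in iBAT, was the only point past 2-fold.

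Between the tissues, the limma fit called 11 of 17 other retinoid oxidoreductases tested higher in iBAT and 2 higher in eWAT, with a median log2 difference of 0.65 beside 0.07 for all genes. Over all genes the fit called 30.8% higher in iBAT and 24.6% higher in eWAT. Without scaling the median of this list turned to -0.11 in WT and -0.32 in ASK1-deficient mice. Medians of other lists turned as well, from 0.60 to -0.32 in WT and from 0.28 to -0.49 in ASK1-deficient mice for the other alcohol dehydrogenases, and from 0.12 to -0.80 and from 0.15 to -0.62 for the receptors. That of the other aldehyde dehydrogenases turned in WT, from 0.32 to -0.60, and in ASK1-deficient mice it was below 0 with scaling too (-0.23). Among the other retinoid oxidoreductases tested, Dhrs9 had the largest difference, 4.01 (limma adjusted p = 1.89e-05). Bco2, a carotenoid-cleaving enzyme of that list, had -1.59 (limma adjusted p = 0.000328). Of 10 uptake and storage genes 2 were called higher in iBAT and 6 higher in eWAT, among them Rbp4 (-2.63, limma adjusted p = 0.000338). Of 10 retinoic acid targets, 2 were higher in iBAT and 5 in eWAT. Receptors were called 3 each way, with Rarb higher in iBAT (2.64, limma adjusted p = 6.20e-05) and Rara higher in eWAT (-1.19, adjusted p = 0.000863). Of 14 other aldehyde dehydrogenases 7 were higher in iBAT and 5 in eWAT, where Aldh3b1 had -3.09 (limma adjusted p = 2.95e-05) and Aldh1a7 -0.87 (adjusted p = 0.0174). Of 6 other alcohol dehydrogenases 3 were called higher in iBAT, led by Akr1b10 (1.87, limma adjusted p = 0.000275), and 0 higher in eWAT, also 0 at an unadjusted limma p under 0.05.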

How the data were processed

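Each genotype and tissue had 1 one-colour array, and all 4 shared a slide. The authors deposited Agilent Feature Extraction output (version 10.7.3.1 per the file headers), holding for each spot a linear, background-corrected intensity that was not scaled between arrays, its error and a flag for spots well above background. The authors also deposited a series table whose signal is that intensity divided by 1 constant per array. No spot of the 4 arrays was saturated.

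From the deposited intensity, control and outlier spots were dropped, repeated spots averaged, log2 was taken after scaling each array by its 75th percentile, and genes were averaged over the probes detected (well above background) on each array of a contrast. Of 34840 names in the files, 22146 matched the RefSeq gene table, giving 22065 genes. Where 1 array was not well above background, only a bound was given. The 2-fold threshold is a rule of size, and errors cover the scanner and not the mice. The error of a ratio combines the errors of both spots. The tissue contrast was fitted with limma 3.58.1 (R 4.3.3) with Benjamini-Hochberg adjustment at 0.05. Both steps were run on simulated data with large planted changes and no spread between mice, which checks the code and not the results.

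The members, the lists and the tests were chosen with earlier results of these data known. Named are the members, the 2 highest and 2 lowest genes by genotype of most retinoid and dehydrogenase lists, list genes measured on both arrays of a tissue and 2-fold apart by genotype, genes within 5 Mb of Adh4 that were 2-fold apart, the 5 nearest profiles and checks of the labels. Rdh7, Ttr, Alb, Hp, Wt1, Aldh2 and the gene Aldh1a7 as a relative were named after their values were seen. Some genes are not reported here. Promoters are from RefSeq (GRCm38.p6), and probe positions are from the files (mm9). Without a genome of that build in use here, exons and UTRs were not assigned. Tools were Python 3.11.15, numpy 2.4.6, pandas 2.3.3 and matplotlib 3.10.9. Alternatives were no scaling, quantile normalization, normexp with an offset of 50, median centring, the percentile over probes detected on every array, the brightest probe, the series table, a 1.5-fold threshold, no filter on dim probes, tissue alone with and without each array, and an intensity trend in eBayes.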

Additional observations from a re-analysis of the deposited data

Results flagged for a closer look

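Aldh1a7, the rodent relative of Aldh1a1, had log2 ratios of opposite sign in the 2 tissues, as did 50.7% of the 14059 genes measured in both and 7 of 14 other aldehyde dehydrogenases. The log2 ratio, ASK1-deficient minus WT, was -0.65 in iBAT (7409 in WT and 4931 in ASK1-deficient mice) and 0.20 in eWAT (19039 and 20646), each beyond its scanner error of 0.20, the second by less than 0.01. Without scaling the value in eWAT was 0.12, within that error. With 1 array per condition this difference between the tissues was not tested.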

How the results depend on the processing

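No paired analysis was possible because each condition has 1 array and no replicate numbers pair them, but the tissue fit held genotype as a term, and with tissue alone it called 4340 and 3508 genes higher in iBAT and in eWAT. Under the 7 alternatives the log2 ratio of Adh4 ran from -1.56 to -0.55 in iBAT and from -1.19 to -0.70 in eWAT. The smallest were those with normexp, -0.55 and -0.70, whose offset of 50 is close to the signals themselves. Its direction is no test, since Adh4 was selected for being lower in both tissues. Having 1 probe, it kept its values with the brightest probe. With normexp, genes at least 2-fold lower and higher were 68 and 38 in iBAT and 50 and 10 in eWAT, at 1.5-fold 612 and 650, and 409 and 212, and without the filter on dim probes 544 and 583, and 604 and 431. The tissue fit called 1283 genes higher in iBAT and 9581 higher in eWAT without scaling, and 7165 higher in iBAT without the filter. Leaving out 1 array in turn gave 2650 to 4976 and 2263 to 3776, the lowest without the WT eWAT array, and without the ASK1-deficient eWAT array 2807 were higher in iBAT. Without scaling Adh5 reversed to -0.48, and the median WT tissue difference of the other retinoid oxidoreductases became -0.11. Aldh1a1, Aldh1a3 and Retsat kept their direction and their call under all 14 alternatives. The bound of Aldh1a2 between the WT tissues was 3.49 on the log2 scale with normexp and 6.23 without scaling. Median log2 ratios of all genes moved by over 0.1 with the percentile over detected probes (0.103 in iBAT, -0.133 for WT tissues), quantile normalization (-0.106 for WT tissues) and no scaling (-0.920 for WT and -0.771 for ASK1-deficient tissues). Adh4, Adh5 and Stra6, and Aldh1a2 and Aldh1a3 in iBAT, were measured close to background, which limits their precision.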
